A study of Mus musculus with 8 samples.

Results

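The expression of 40 genes of the cell cycle and of mitosis was followed in the hearts of mice with chronic kidney disease and of healthy mice. The genes were taken by symbol from a list of cyclins, cyclin-dependent kinases, replication factors, mitotic kinases and spindle proteins, and all 40 were found among the 27304 genes of the deposited count table. Bulk RNA sequencing had been applied to heart tissue of male 129/Sv mice, an inbred strain; the labels give no age. The adenine group (4 libraries, adenine 1 to adenine 4) had eaten a diet with 0.15% adenine for 13 weeks, which injures the kidney tubules and brings about chronic kidney disease. The control group (4 libraries, control 1 to control 4, titled Sham) had eaten a standard diet for the same 13 weeks, and the labels name no engineered allele in either group. Whether each library is a separate animal is not in the labels, so the p-values below reflect spread among these 8 libraries, part of which may be technical.

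Cells enter the cycle when D-type cyclins activate CDK4, which phosphorylates the retinoblastoma protein and frees E2F transcription factors to switch on cyclin E and the replication genes. The MCM helicase then opens DNA at the origins, PCNA holds the polymerases on the template, and ribonucleotide reductase and thymidylate synthase supply nucleotides. In G2 phase a later wave of genes, driven by the MYB-MuvB complex and FOXM1, provides cyclin B, CDK1 and the spindle and chromosome proteins, several of which are degraded as cells leave mitosis. Most cardiomyocytes of the adult mouse have left the cycle, so mitotic transcripts in whole heart are rare and can come from any dividing cell in the tissue.

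Total counts ran from 15626620 in adenine 2 to 33886385 in control 2, so that 1 CPM (a count relative to the library total, scaled to library size by TMM factors) stood for 16.4 to 31.4 reads. All 40 genes passed the filter on low counts, with 9 to 4776 reads per library, and 18 of them had fewer than 50 reads in at least 1 library, where counting error is large. The 8 cardiomyocyte markers were all present and summed to 29118 to 50814 CPM in the adenine libraries and 43545.5 to 55766 CPM in the control libraries, the lowest value being that of adenine 3. A pair of libraries stood apart in their blood and immune cell markers. The 7 erythroid markers found in the table summed to 2936, 2226, 3087 and 1662 CPM in adenine 1 to 4, against 26052, 7009.6, 8056 and 8061 CPM in control 1 to 4. They were led by the globin genes Hba-a1, Hba-a2 and Hbb-bt. In this sum every adenine library was below every control, and control 1 was far above the other controls. The 14 macrophage and monocyte markers summed to 542, 411, 2953 and 359.8 CPM in adenine 1 to 4, against 762, 475, 449.8 and 452 CPM in control 1 to 4, and all 14, led by Lyz2, were highest of the 8 libraries in adenine 3. Values of the members are therefore also given without control 1 or without adenine 3 where these libraries moved them most.

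Most mitotic genes differed widely among the control libraries. Their transcripts were abundant in control 1, scarce in control 2 and at levels in between in control 3 and control 4. Cenpf did not share this order. Cenpa had it by rank only, since its controls were nearly equal, at 27.5 to 28.9 CPM. Summed over the 23 genes of G2 phase and mitosis, expression was 100.7, 109, 161 and 86.4 CPM in adenine 1 to 4, against 273, 80.5, 117 and 165 CPM in control 1 to 4. The diets overlapped, since control 2 was the lowest of all 8 libraries and control 1 the highest. Control 1 had the highest level of all 8 libraries in 33 of the 40 genes, against 6.87% of all genes tested, and control 2 had the lowest in 26 of the 40, against 26.8% of all genes. Among the 4 controls, control 1 was highest and control 2 lowest in 29 of the 40 genes, against 6.31% of all genes tested. That order held in 22 of the 23 genes of G2 phase and mitosis, the exception being Cenpf, and in 7 of the 17 genes of G1 phase and replication. It was counted in 28 to 29 of the 40 genes under the other scalings tried. These libraries were singled out after their values were seen. The erythroid sum was also highest in control 1 and, by a small margin, lowest of the controls in control 2, and 4 of its 7 markers had that order. The macrophage sum was highest of the controls in control 1 and lowest in control 3, and 4 of its 14 markers had the order of the mitotic genes. The part of these cells in the result was not tested.

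The spread among the controls was wider for the G2 and mitotic genes than for the G1 and replication genes. The highest control had at least 4 times the level of the lowest control in 19 of the 40 genes, against 9.59% of all genes tested and 4.82% of genes with a mean of 1 to 20 CPM, the range in which most of these genes lie. In the adenine group the same held for 3 of the 40 genes, against 13.8% of all genes tested. The median ratio of the highest to the lowest control was 7.01 for the G2 and M phase cyclins and kinases, 5.23 for the spindle genes, 4.32 for the chromosome and checkpoint genes, 2.04 for the replication genes and 1.65 for the G1 genes, beside 1.60 for all genes tested. Mki67 spread most, by 14.8-fold, followed by Ccnb2 at 13.7-fold and Cdk1 at 12.4-fold, and Cenpa least, by 1.05-fold. Between the adenine libraries the median ratio over the 40 genes was 1.91, beside 1.78 for all genes tested, and between the controls it was 3.83. In bulk tissue, fewer dividing cells and less of a transcript per dividing cell cannot be told apart.

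**Figure D1:**
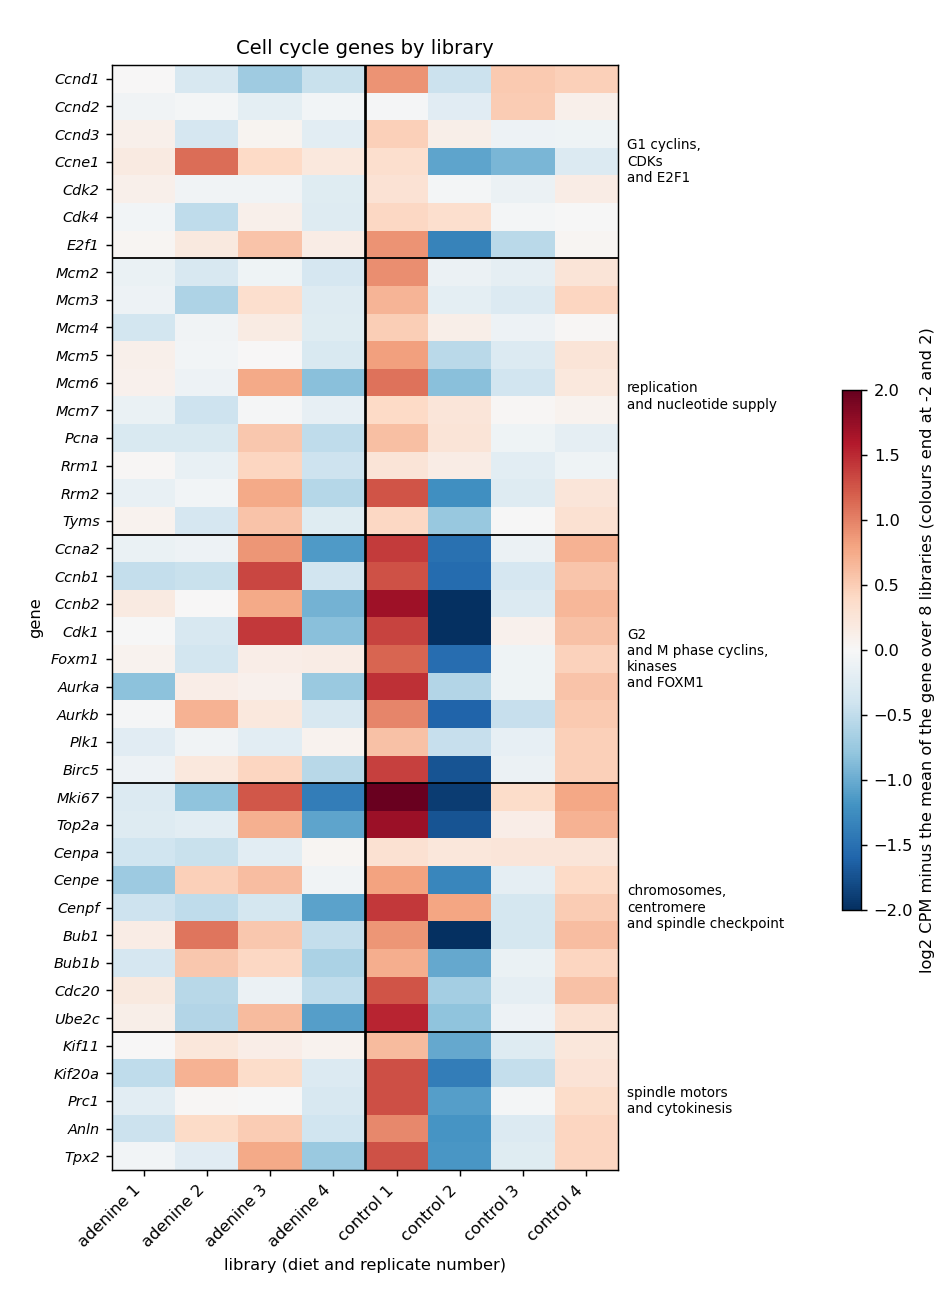
Heat map of the 40 genes (rows, in 5 groups by role) in the 8 libraries (columns, adenine on the left and control on the right of the black line). Colour shows log2 CPM minus the mean of the gene over the 8 libraries, red for higher and blue for lower. The column of control 1 is red and that of control 2 blue through the G2, chromosome and spindle groups, except for Cenpf and Cenpa in control 2, and adenine 3 is red for several replication and G2 genes.

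Many genes of the later wave carry a short element near their start, the cell cycle genes homology region (CHR), and many of the G1/S wave carry E2F sites. The RefSeq promoter windows of GRCm38.p6, which run from 250 bases before to 50 bases after the gene start, were searched on both strands for the CHR as TTTGAA, for the CCAAT box as CCAAT, and for E2F sites as TTTCCCGC, TTTCGCGC, TTTGGCGC or TTTGCCGC. A window was found for 32 of the 40 genes. A CHR was present in 15 of the 32 (46.9%), against 18.1% of the windows of all 27025 genes, and a CCAAT box in 25 of the 32 (78.1%), against 37.9%. Both stood together in 14 of the 32 (43.8%), against 7.12%, and an E2F site in 6 of the 32 (18.8%), against 2.32%. By role, the CHR was found in 3 of 3 spindle genes, 7 of 9 chromosome and checkpoint genes, 4 of 6 G2 and M phase genes, 1 of 9 replication genes and 0 of 5 G1 genes, and the E2F site in 4 of 9 replication genes. Of 34 mitotic genes outside the list with a window, 24 (70.6%) had a CHR. A match of these letters is a description of the window and does not show that a factor binds there. The replication gene with the most E2F matches was Mcm6. The windows below are those of the 3 genes with the widest spread between controls, of Cenpa, which had the least, and of Mcm6. They are written 5' to 3' on the strand of the gene, with each match to a CHR, CCAAT box or E2F site, on either strand, in capitals.
Mki67, chr7:135716330-135716629, minus strand: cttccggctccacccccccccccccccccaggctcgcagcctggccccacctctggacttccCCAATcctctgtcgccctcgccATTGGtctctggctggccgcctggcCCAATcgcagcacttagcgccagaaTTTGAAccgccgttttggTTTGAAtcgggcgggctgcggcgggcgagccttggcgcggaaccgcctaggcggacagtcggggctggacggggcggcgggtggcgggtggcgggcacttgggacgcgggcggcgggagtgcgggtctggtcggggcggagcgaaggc
Ccnb2, chr9:70421505-70421804, minus strand: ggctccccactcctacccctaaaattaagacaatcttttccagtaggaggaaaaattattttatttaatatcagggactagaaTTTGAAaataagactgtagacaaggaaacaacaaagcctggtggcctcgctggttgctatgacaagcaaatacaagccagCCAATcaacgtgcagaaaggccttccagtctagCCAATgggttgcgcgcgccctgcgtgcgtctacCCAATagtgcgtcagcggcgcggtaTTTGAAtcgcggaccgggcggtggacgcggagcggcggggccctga
Cdk1, chr10:69352863-69353162, minus strand: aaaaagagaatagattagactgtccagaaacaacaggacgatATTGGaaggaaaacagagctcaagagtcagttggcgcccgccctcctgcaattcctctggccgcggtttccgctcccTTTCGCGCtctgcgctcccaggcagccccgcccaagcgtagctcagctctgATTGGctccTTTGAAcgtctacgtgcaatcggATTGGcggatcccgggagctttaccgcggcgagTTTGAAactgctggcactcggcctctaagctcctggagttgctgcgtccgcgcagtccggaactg
Cenpa, chr5:30666636-30666935, plus strand: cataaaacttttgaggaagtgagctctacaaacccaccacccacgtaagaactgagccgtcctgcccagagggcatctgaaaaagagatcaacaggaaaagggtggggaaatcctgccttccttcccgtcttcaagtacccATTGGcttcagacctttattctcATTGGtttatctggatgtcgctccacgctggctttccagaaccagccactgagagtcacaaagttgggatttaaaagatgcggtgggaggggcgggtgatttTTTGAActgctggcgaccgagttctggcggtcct
Mcm6, chr1:128359656-128359955, minus strand: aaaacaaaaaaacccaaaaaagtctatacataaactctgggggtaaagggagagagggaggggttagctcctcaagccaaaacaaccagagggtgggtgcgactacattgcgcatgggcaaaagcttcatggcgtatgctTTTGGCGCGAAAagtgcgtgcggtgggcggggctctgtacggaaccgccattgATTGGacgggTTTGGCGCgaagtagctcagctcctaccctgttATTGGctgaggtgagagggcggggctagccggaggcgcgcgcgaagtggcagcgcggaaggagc
Ccnb2 holds 3 CCAAT boxes followed by a CHR whose first base lies at position 5, counted from 1 at the gene start. Cdk1 holds 2 CHRs, 3 CCAAT boxes on the opposite strand and 1 E2F site. Mki67 holds 3 CCAAT boxes and 2 CHRs. Cenpa, whose level hardly varied between controls, also has a CHR, at position 17, and 2 CCAAT boxes, so the matches do not separate it from the genes with wide spread. Among genes whose controls spanned at least 4-fold, 8 of 14 windows held a CHR (57.1%), against 7 of 18 (38.9%) of the other members. Of the 19 genes with that span, 17 belong to the G2 and mitosis groups, so this split largely follows role. The G2 and mitosis genes under 4-fold, Plk1, Cenpa, Cenpf, Bub1b, Cdc20 and Kif11, each held a CHR. Birc5, Ccnb1, Bub1 and Cenpe spanned at least 4-fold and held none. Mcm6 holds no CHR and 3 matches to the E2F words, 2 of which overlap.

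The diets were compared to ask whether kidney disease goes with a change of cell cycle transcripts in the heart. None of the 40 genes passed the test. Most stood somewhat lower in the adenine group, by a median of 0.26 log2 units over the 40 genes. The direction turned when control 1 was left out, and the median difference was then 0.07 log2 units higher in the adenine group. The most negative difference was that of Cenpf, a kinetochore protein, at 7.71 ± 1.57 CPM in the adenine libraries and 18.7 ± 8.93 CPM in the controls, and the most positive that of Ccne1, cyclin E1, at 2.33 ± 0.780 CPM in the adenine libraries and 1.25 ± 0.575 CPM in the controls (SD, n = 4 each). By edgeR's quasi-likelihood test with Benjamini-Hochberg adjustment, 0 of the 40 genes were called in either direction at an adjusted p under 0.05. That test called 8 genes higher (0.0398%) and 0 genes lower (0%) of 20093 tested. The lowest adjusted p of a member was 0.149, for Cenpf. At an unadjusted p under 0.05, 4 of the 40 were lower (Cenpf, Cenpa, Ccnd1 and Mcm7), against 6.63% of all genes tested, and 1 was higher (Ccne1), against 10.9%. The DESeq2 Wald test called 1 of the 40, Cenpf, lower and 0 higher, against 0.991% and 0.866% of the genes it tested. The adenine values lay wholly below the control values for 2 of the 40 genes (Cenpa and Mcm7), against 3.84% of all genes tested, and wholly above for 0, against 3.45%.

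The log2 fold change (adenine minus control) was negative for 33 of the 40 genes, against 45.8% of all genes tested, and its median was -0.26, beside 0.05 for all genes in the fit with TMM factors. Upper-quartile scaling shifted the median of all genes upward and left 26 of the 40 negative, against 29.7% of all genes, with medians of -0.12 for the 40 and 0.20 for all genes. Without control 1, it was negative for 17 of the 40, against 44.5% of all genes, and its median was 0.07, beside 0.08 for all genes. Leaving out control 2, the library with the lowest mitotic levels, gave 37 negative values, against 42% of all genes, and a median of -0.40. Without adenine 3 there were 36 negative values, against 46.4%, and a median of -0.46. In limma-voom 26 of the 40 were negative (median -0.14), and with the replicate block 30 (median -0.15). Leaving out adenine 4 gave 25 (median -0.14), and leaving out adenine 1 gave 28 (median -0.25). The medians of all genes in these fits were 0.03 to 0.08. Alternatives not named here left 31 to 35 negative. With both control 1 and adenine 3 left out, 25 of the 40 were negative, against 46.1%, the median was -0.13, and 0 of the 40 were called, beside 21 genes called higher (0.102%) and 13 lower (0.0633%).

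**Figure D2:**
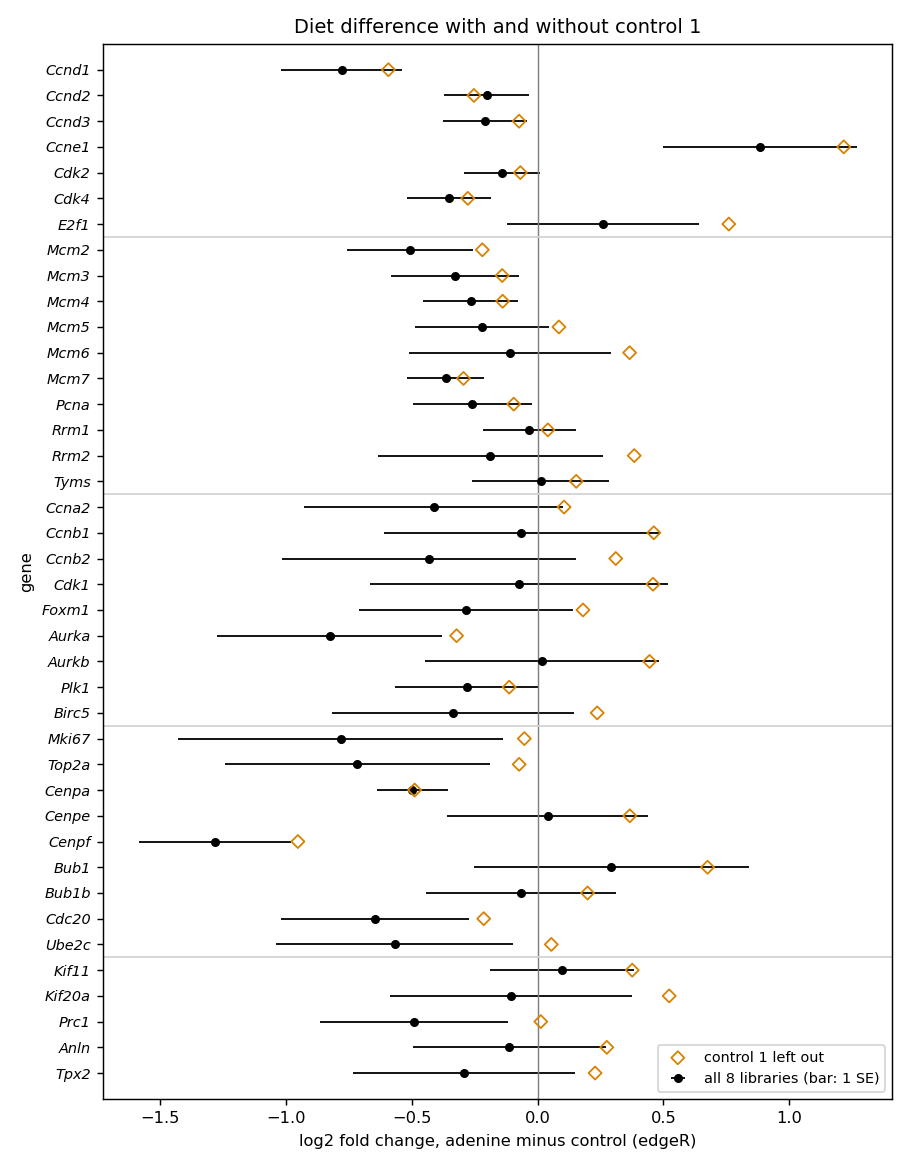
Log2 fold change between the diets (horizontal axis, adenine minus control, edgeR) for each of the 40 genes (vertical axis, grouped by role). Black points with bars of 1 SE use all 8 libraries, and open diamonds leave out control 1. Most black points lie left of 0, 33 of 40, whereas 17 of the 40 diamonds do (with upper-quartile scaling, 26 of the black points would lie left of 0).

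In the G1 group 0 of 7 genes were called, with a median log2 fold change of -0.20; the D-type cyclins and Cdk4 had the higher levels per kilobase of exon and E2f1 and Ccne1 the lower ones. Ccnd1, cyclin D1, which couples growth signals to CDK4, had 27.0, 21.5, 16.3 and 19.7 CPM in adenine 1 to 4, against 49.8, 19.9, 38.3 and 37.1 CPM in control 1 to 4. Control 2 lay among the adenine libraries and the other 3 controls above all of them. The diets differed by -0.78 ± 0.24 log2 units (SE; adjusted p = 0.228, edgeR's quasi-likelihood test), and by -0.59 without control 1 and -0.99 without control 2. Ccnd2, the D-type cyclin with the highest level per kilobase of exon, had 120.3, 123, 109 and 121 CPM in adenine 1 to 4, against 124, 108, 178 and 135 CPM in control 1 to 4. The diets overlapped, with control 3 the high library, and the log2 fold change was -0.20 ± 0.17. Ccnd3 averaged 42.9 ± 6.08 CPM in the adenine libraries and 49.6 ± 9.80 CPM in the controls (SD, n = 4 each), with a log2 fold change of -0.21 ± 0.17. Cdk4, the catalytic partner of the D-type cyclins, averaged 32.5 ± 5.87 CPM in the adenine libraries and 41.6 ± 6.73 CPM in the controls, a difference of -0.35 ± 0.17 log2 units (adjusted p = 0.292, edgeR).

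Ccne1, which activates CDK2 at the entry to S phase, had a positive difference. It had 1.84, 3.49, 2.13 and 1.87 CPM in adenine 1 to 4, against 2.03, 0.779, 0.857 and 1.34 CPM in control 1 to 4. The groups overlapped because control 1 lay above 2 of the adenine libraries, adenine 1 and adenine 4. Its log2 fold change was 0.88 ± 0.38 (adjusted p = 0.277, edgeR) and 1.22 without control 1. Cdk2 itself averaged 12.4 ± 1.24 CPM in the adenine libraries and 13.7 ± 1.79 CPM in the controls, a difference of -0.14 ± 0.15 log2 units. E2f1, the transcription factor released by phosphorylation of the retinoblastoma protein, had 3.68 to 5.32 CPM in adenine and 1.42 to 6.67 CPM in control libraries, with control 1 highest and control 2 lowest. Its log2 fold change was 0.26 ± 0.38, or 0.76 without control 1. Ccnd1, Ccnd2, Ccnd3, Cdk2 and Cdk4 share exonic bases with a gene on the opposite strand, so that reads of the partner could be counted with them if strand was not used.

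Of the 10 replication genes, 9 had a negative log2 fold change and 0 were called, with a median of -0.24. Mcm7, a subunit of the replicative helicase, had 10.99, 9.05, 11.9 and 10.8 CPM in adenine 1 to 4, against 15.96, 14.3, 12.3 and 12.7 CPM in control 1 to 4. Every adenine library was below every control, though adenine 3 and control 3 were close. The log2 fold change of Mcm7 was -0.36 ± 0.15 (adjusted p = 0.274, edgeR). Mcm7 also hosts the microRNA genes Mir25 and Mir93 and overlaps Ap4m1 and Cops6 on the opposite strand. The other helicase subunits stood at 2.77 to 9.84 CPM in adenine and 2.74 to 12.4 CPM in control libraries, and in each of them control 1 was the highest of the 8. Mcm2 gave -0.51 ± 0.25 log2 units, Mcm3 -0.33 ± 0.26, Mcm4 -0.27 ± 0.19, Mcm5 -0.22 ± 0.27 and Mcm6 -0.11 ± 0.40. Without control 1, Mcm5 and Mcm6 were positive, at 0.08 and 0.37, and Mcm2 stood at -0.22.

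Pcna, the sliding clamp, had 28.7, 28.6, 51.6 and 25.0 CPM in adenine 1 to 4, against 53.7, 42.3, 33.4 and 31.3 CPM in control 1 to 4. The adenine libraries lay below all controls except for adenine 3, which was nearly as high as control 1. Its log2 fold change was -0.26 ± 0.24 (adjusted p = 0.514, edgeR), and -0.56 without adenine 3. The subunits of ribonucleotide reductase differed in how much they varied. Rrm1, the large subunit, had 14.3 to 25.6 CPM in adenine and 16.5 to 22.7 CPM in control libraries, whereas Rrm2, the small subunit made in S phase, had 2.24 to 5.60 CPM in adenine and 1.42 to 7.93 CPM in control libraries. Their log2 fold changes were -0.03 ± 0.18 for Rrm1 and -0.19 ± 0.45 for Rrm2, and without control 1 they were 0.04 and 0.38. Tyms, thymidylate synthase, had 5.20 to 9.74 CPM in adenine and 3.90 to 8.74 CPM in control libraries, a difference of 0.01 ± 0.27. Adenine 3 was the highest adenine library for 9 of the 10 replication genes, and for 23 of all 40, against 26.5% of all genes tested. The sums of the macrophage and of the fibroblast markers were also highest in adenine 3. That library was the highest of all for 14 of 14 macrophage markers, but for 3 of 9 fibroblast markers. The part of these cells in the levels of adenine 3 was not tested.

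The 9 G2 and M phase genes were wide in their spread between the controls, and 0 were called. Cdk1, the kinase that drives cells into mitosis, had 3.92, 3.18, 10.6 and 2.21 CPM in adenine 1 to 4, against 10.1, 0.813, 4.17 and 5.96 CPM in control 1 to 4. Adenine 3 and control 1 alone reached above 10 CPM, and the lowest library of all was control 2. On the log2 scale the difference was -0.07 ± 0.59 (adjusted p = 0.950, edgeR), 0.46 without control 1 and -0.78 without adenine 3. Ccnb2, a mitotic cyclin that partners CDK1, had 2.76, 2.45, 4.14 and 1.27 CPM in adenine 1 to 4, against 7.90, 0.576, 2.01 and 3.86 CPM in control 1 to 4. The adenine libraries all lay inside the range of the controls, with a log2 fold change of -0.43 ± 0.58, or 0.31 without control 1 and -0.75 without adenine 3. Ccnb1, cyclin B1, had 1.92, 1.96, 6.75 and 2.06 CPM in adenine 1 to 4, against 6.41, 0.915, 2.12 and 3.94 CPM in control 1 to 4. Adenine 3 was the only adenine library above 2.06 CPM, and the log2 fold change was -0.07 ± 0.55, with 0.46 without control 1 and -0.77 without adenine 3. A processed pseudogene in the same table, Ccnb1-ps, is 99.2% identical to Ccnb1 over 1287 bases, so reads could be split between them.

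The remaining genes of this group followed the same order among the controls. Ccna2, cyclin A2, which acts in S and G2 phase, had 1.57 to 6.30 CPM in adenine and 1.22 to 9.03 CPM in control libraries, and differed by -0.41 ± 0.52 log2 units, by 0.10 without control 1 and by -0.87 without adenine 3. Foxm1, the transcription factor of the G2 genes, had 2.32 to 3.33 CPM in adenine and 1.05 to 6.77 CPM in control libraries, and differed by -0.29 ± 0.42 log2 units, or 0.18 without control 1. Aurka, the centrosomal Aurora kinase, had 0.920, 1.77, 1.72 and 0.972 CPM in adenine 1 to 4, against 4.48, 1.08, 1.53 and 2.41 CPM in control 1 to 4. Control 1 was alone above 2.41 CPM, and the log2 fold change was -0.83 ± 0.45 (adjusted p = 0.329, edgeR) with it and -0.32 without it. Aurkb and Birc5, the kinase and the survivin subunit of the chromosomal passenger complex, differed by 0.02 ± 0.47 and -0.34 ± 0.48 log2 units, and by 0.44 and 0.24 without control 1. Plk1, the polo-like kinase of mitotic entry, had the narrowest spread of the group, at 2.48 to 3.03 CPM in adenine and 2.10 to 4.35 CPM in control libraries, and differed by -0.28 ± 0.28 log2 units, or -0.11 without control 1.

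The chromosome and checkpoint genes held the members with the lowest p-values, Cenpf and Cenpa. Cenpf, a large protein of the kinetochore and nuclear envelope, had 8.52, 8.01, 8.88 and 5.42 CPM in adenine 1 to 4, against 30.3, 19.5, 8.87 and 16.1 CPM in control 1 to 4. The adenine libraries were alike, and 3 of the 4 controls lay above them, while control 3 was level with adenine 3. The log2 fold change was -1.28 ± 0.30 (adjusted p = 0.149, edgeR's quasi-likelihood test), and the DESeq2 Wald test gave an adjusted p of 0.0120. Over the alternatives it ran from -1.49 to -0.95, with an adjusted p of 0.453 without control 1 and 0.0576 without adenine 3. Control 2, the lowest of the 8 libraries for 19 of the 23 genes of G2 phase and mitosis, was the library with the highest Cenpf after control 1. Cenpa, the histone H3 variant that marks centromeres, had 17.8, 17.2, 20.2 and 24.0 CPM in adenine 1 to 4, against 28.9, 27.5, 27.7 and 27.7 CPM in control 1 to 4. Every adenine library was below every control, and the controls were nearly equal, at 28.0 ± 0.633 CPM, beside 19.8 ± 3.08 CPM in the adenine libraries (SD, n = 4 each). The difference was -0.50 ± 0.14 log2 units (adjusted p = 0.213, edgeR; 0.0847, DESeq2), and it moved little between alternatives, from -0.59 to -0.36.

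Mki67, whose protein Ki-67 coats mitotic chromosomes and is the usual stain for cycling cells, had 7.96, 5.50, 22.9 and 3.70 CPM in adenine 1 to 4, against 38.0, 2.57, 12.4 and 16.4 CPM in control 1 to 4. Adenine 3 was above 3 of the 4 controls, and control 2 was below all adenine libraries. The log2 fold change of Mki67 was -0.78 ± 0.64 (adjusted p = 0.476, edgeR), with -0.05 when control 1 was left out and -1.61 when adenine 3 was left out. Top2a, the topoisomerase that untangles chromosomes, had 7.76, 8.01, 15.2 and 4.49 CPM in adenine 1 to 4, against 30.4, 2.81, 10.2 and 15.1 CPM in control 1 to 4. It ranked the 8 libraries almost as Mki67 did, and its log2 fold change was -0.72 ± 0.53, or -0.07 without control 1. Cenpe, a kinetochore motor, and the checkpoint kinases Bub1 and Bub1b differed by 0.04 ± 0.40, 0.29 ± 0.55 and -0.07 ± 0.38 log2 units. Among the controls, Bub1 ranged between 0.305 CPM in control 2 and 3.06 CPM in control 1. Without control 1 the 3 genes stood at 0.37, 0.68 and 0.20 log2 units. Cdc20 and Ube2c, an activator and the ubiquitin-conjugating enzyme of the anaphase-promoting complex, differed by -0.65 ± 0.37 and -0.57 ± 0.47 log2 units. Without control 1 these values were -0.21 and 0.05.

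**Figure D3:**
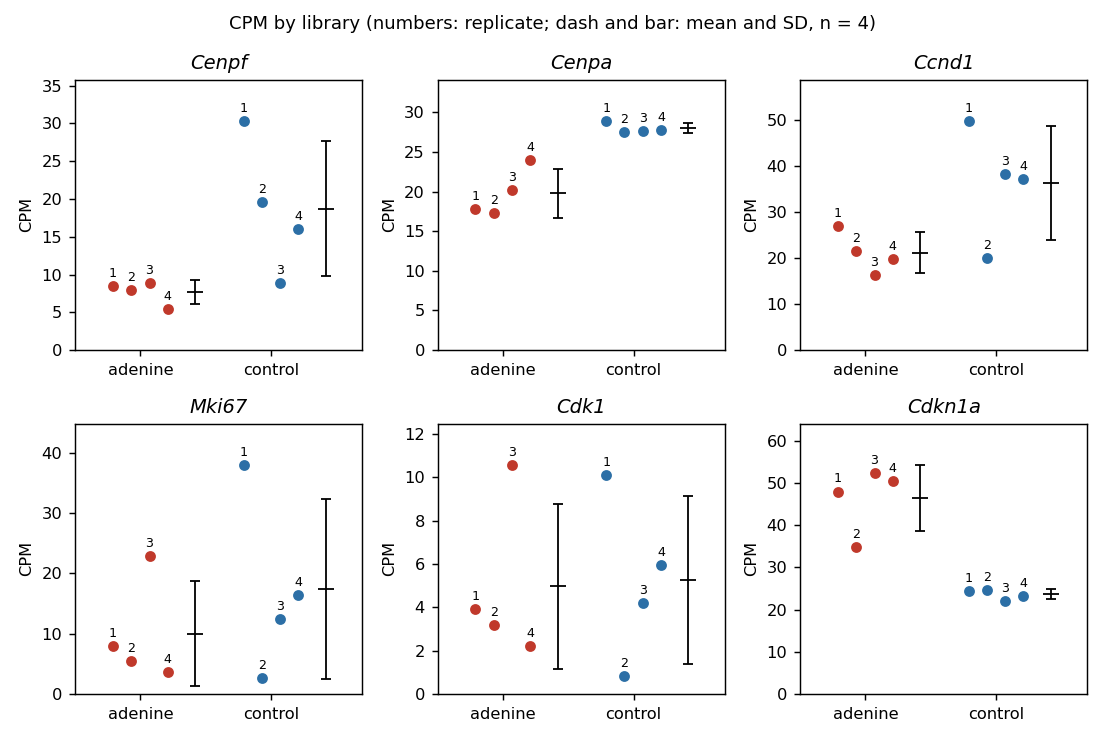
CPM (vertical axes, from 0) of Cenpf, Cenpa, Ccnd1, Mki67, Cdk1 and Cdkn1a in each library, adenine in red on the left and control in blue on the right, with the replicate number above each point and the mean and SD beside each group (n = 4). Cenpa and Cdkn1a are the panels in which the diets do not overlap, with adenine lower for Cenpa and higher for Cdkn1a, and control 1 is far above the other controls for Mki67.

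Of the 5 genes of the spindle and of cytokinesis, 0 were called and 4 had a negative log2 fold change. Prc1, which bundles the microtubules of the central spindle, had 4.80, 5.63, 5.48 and 4.45 CPM in adenine 1 to 4, against 13.5, 2.57, 5.40 and 7.11 CPM in control 1 to 4. The adenine libraries were nearly equal and lay inside the range of the controls. Its log2 fold change was -0.49 ± 0.37 with control 1 and 0.01 without it. Kif11, the motor that separates the spindle poles, was similarly even in the adenine libraries, at 5.84 to 6.73 CPM, and ran from 2.85 to 8.93 CPM in the controls, with a difference of 0.10 ± 0.29 log2 units, or 0.38 without control 1. Kif20a, a motor of the central spindle, Anln, the anillin scaffold of the cleavage furrow, and Tpx2, an activator of Aurora A, differed by -0.11 ± 0.48, -0.11 ± 0.38 and -0.29 ± 0.44 log2 units. Without control 1 all 3 were positive, at 0.52, 0.27 and 0.23, and without adenine 3 Tpx2 stood at -0.67. In all 5 genes control 1 was the highest and control 2 the lowest of the 8 libraries.

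Among the regulators around these genes, the CDK inhibitor Cdkn1a rose in the adenine hearts. Cdkn1a encodes p21, which blocks CDK complexes and is induced by p53 and by other stress signals. It had 48.0, 34.9, 52.3 and 50.6 CPM in adenine 1 to 4, against 24.5, 24.6, 22.1 and 23.2 CPM in control 1 to 4, with every adenine library above every control. The log2 fold change was 0.98 ± 0.15 (adjusted p = 0.0482, edgeR's quasi-likelihood test). The call was close to the threshold and was lost in 12 of 18 alternatives, with the log2 fold change between 0.91 and 1.11 and the edgeR, DESeq2 or limma-voom adjusted p between 0.000412 and 0.190. Leaving out 1 library ended the call for adenine 1 (adjusted p = 0.190, edgeR), adenine 4 (0.0780), control 1 (0.179), control 2 (0.116), control 3 (0.189) and control 4 (0.0957). Cdkn1a was the called member of 8 genes with a Cdkn symbol (1 higher and 0 lower, with a median log2 fold change of -0.15). Cdkn1c, which encodes p57, had 9.24, 9.84, 5.79 and 11.6 CPM in adenine 1 to 4, against 13.9, 16.02, 17.7 and 21.4 CPM in control 1 to 4. The diets did not overlap, and the log2 fold change was -0.92 ± 0.21 (adjusted p = 0.142, edgeR; 0.00691, DESeq2).

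The other lists around the cycle held no called gene. Of 18 pocket protein, E2F and MYB-MuvB genes, 0 were called (median log2 fold change -0.03), with -0.58 ± 0.17 for E2f6, a repressor, 0.69 ± 0.43 for E2f7, an atypical repressor, and 0.31 ± 0.20 for Lin54, the subunit that binds the CHR. Of 12 other cyclins, CDKs and regulators of CDKs, 0 were called (median -0.11). Cdc25b stood at -0.59 ± 0.23, Cdc25c at 0.63 ± 0.27 and Ccnh at -0.37 ± 0.17. Among 29 other replication genes 0 were called and the median was 0.04, with -0.41 ± 0.16 for Dut, -0.34 ± 0.16 for Rpa2 and 0.85 ± 0.42 for Chaf1b. Over 40 other mitotic genes 0 were called, the median was 0.07, and 22 had a positive and 18 a negative value, beside 45.8% negative among all genes tested. Bub3 stood at -0.39 ± 0.16, Espl1, the separase, at 0.56 ± 0.27 and Cit, a kinase of cytokinesis, at 0.51 ± 0.30 among them. The median of all genes tested was 0.05. Control 1 was highest and control 2 lowest of the controls in 36 of the 40 other mitotic genes.

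The sums by role differed in their order of libraries. The 10 replication genes summed to 101, 92.0, 144 and 84.3 CPM in adenine 1 to 4, against 167, 112, 100.1 and 114 CPM in control 1 to 4. The 7 G1 genes summed to 251, 226, 232 and 227 CPM in adenine 1 to 4, against 310.0, 238, 309 and 271 CPM in control 1 to 4, and here control 3 was nearly as high as control 1. The 40 other mitotic genes summed to 185, 231, 256 and 189 CPM in adenine 1 to 4, against 319, 129.6, 189.9 and 237 CPM in control 1 to 4. Control 1 was thus highest, and adenine 3 the highest of the adenine libraries, in the sums of the G2 and mitosis genes, the replication genes and the other mitotic genes. The erythroid sum was highest in control 1 too and the macrophage sum in adenine 3. All 7 erythroid markers had a negative log2 fold change, with a median of -2.07. Of these, edgeR called 0, and the DESeq2 Wald test called 4 lower, against 0.991% of the genes it tested. Other markers were low, with lymphocyte sums of 9.33 to 24.0 CPM in adenine and 7.96 to 13.5 CPM in control libraries, and neutrophil sums of 10.2 to 16.1 CPM in adenine and 3.90 to 7.64 CPM in control libraries, where Cxcr2 was at 0 in control 2. Endothelial markers summed to 1102 to 1662 CPM in adenine and 1254 to 1730.0 CPM in control libraries. Among the 8 endothelial markers 7 had a negative log2 fold change, with a median of -0.37. By edgeR 0 were called, and the DESeq2 Wald test called 1 lower, against 0.991% of the genes it tested. For 3 of the 8 the adenine values lay wholly below the control values, against 3.84% of all genes tested. Fibroblast markers summed to 1257, 724, 3693 and 1361 CPM in adenine 1 to 4, against 1436 to 2273 CPM in control libraries. Of these 9 markers, 6 had a negative and 3 a positive log2 fold change, with a median of -0.69. By edgeR 0 were called, and the DESeq2 Wald test called 4 lower, against 0.991% of the genes it tested. For 4 of the 9 the adenine values lay wholly below the control values, against 3.84% of all genes tested. The part of these cell types in the mitotic sums was not tested.

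**Figure D4:**
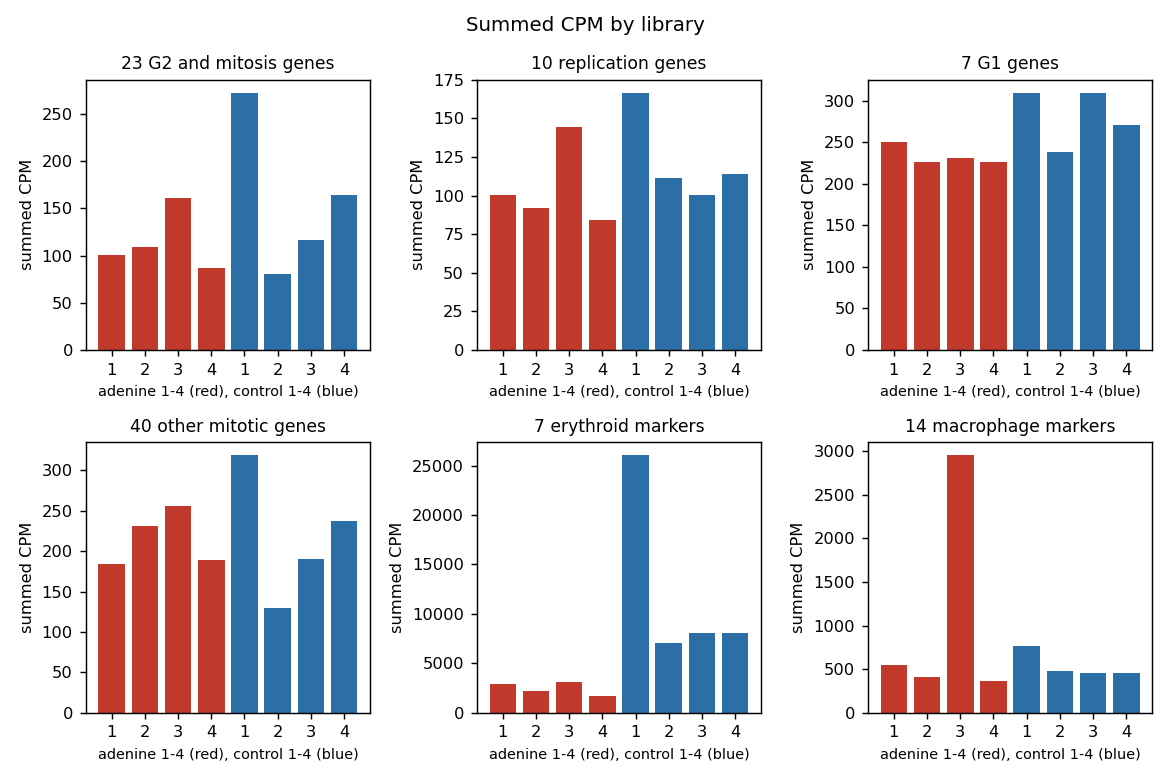
Summed CPM (vertical axes, from 0) in each library, adenine 1 to 4 in red on the left and control 1 to 4 in blue on the right, for the 23 G2 and mitosis genes, the 10 replication genes, the 7 G1 genes, 40 other mitotic genes, 7 erythroid markers and 14 macrophage markers. Control 1 has the highest bar in the panels of the G2 and mitosis genes (273), the replication genes, the other mitotic genes and the erythroid markers (26052), and adenine 3 in that of the macrophage markers (2953).

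Compared per kilobase of exon (the union of annotated exons), Pcna, Ccnd2, Cdk4, Ccnd1 and Ccnd3 were the most abundant members and, over all 8 libraries, Bub1 the least. Pcna stood at 13.96 ± 5.08 CPM per kb in the adenine libraries and 16.7 ± 4.26 CPM per kb in the controls (SD, n = 4 each). Ccnd2 stood at 12.6 ± 0.647 CPM per kb in the adenine libraries and 14.5 ± 3.20 CPM per kb in the controls. Cdk4 stood at 10.01 ± 1.81 CPM per kb in the adenine libraries and 12.8 ± 2.07 CPM per kb in the controls. Pcna and Ccnd2 were closer in mean than the SD of Pcna in both groups, and Cdk4 lay below Ccnd2 by more than either SD in the adenine libraries but not in the controls. Cenpa ranked 6 of 40, above all other mitotic members, at 3.38 ± 0.526 CPM per kb in the adenine libraries and 4.77 ± 0.108 CPM per kb in the controls. At the bottom, Bub1 stood at 0.513 ± 0.223 CPM per kb in the adenine libraries and 0.415 ± 0.286 CPM per kb in the controls, where it was lowest, while Cenpf was lowest in the adenine libraries, at 0.499 CPM per kb. Cenpe had means of 0.522 CPM per kb in the adenine libraries and 0.507 CPM per kb in the controls, and Ccne1 of 0.876 CPM per kb in the adenine libraries and 0.470 CPM per kb in the controls, which lie within 1 SD of Bub1 except for Ccne1 in the adenine libraries. Of the 40 genes, 12 share exonic bases with a gene on the opposite strand and 3 with a gene on the same strand, so their levels could include reads of a neighbour.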

How the data were processed

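Hearts on the adenine diet (4 libraries) and on the control diet (4 libraries) were compared by bulk RNA sequencing. RNA came from a peqGOLD TriFast extraction and the libraries from a NEBNext Ultra RNA kit, per the labels' protocols. FastQC 0.11.9, STAR 2.7.6a and the build GRCm38.p6 are listed in the submitters' processing notes. No source used here gives the counting program, its annotation or its strand setting. The values deposited by the authors are whole-number, unscaled counts of reads for each gene. Total counts of 15626620 to 33886385 per library set the precision.

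The diet was tested with edgeR 4.0.16 (R 4.3.3). A default low-count filter by group was applied, TMM factors scaled the libraries, and the quasi-likelihood F-test was adjusted by the Benjamini-Hochberg method over 20093 genes and called at an adjusted p under 0.05. The common biological coefficient of variation was 0.293. The fit was tested on simulated data. CPM values use TMM-scaled totals. Alternatives were DESeq2 1.42.0 (Wald test and size factors), limma-voom (limma 3.58.1), robust edgeR, upper-quartile factors, mitochondrial genes removed, 2 other filters, the replicate number as a block and each library left out. Leaving out both control 1 and adenine 3, and unscaled totals, were added after seeing the data.

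The 40 genes, the gene lists and the tests were chosen with earlier results of these data known. Every called gene, or otherwise the 3 with the lowest unadjusted p, was named per list of related genes, and up to 3 of the highest level per marker list. Log2 fold changes of 20 members were followed through every alternative. These members and Cdkn1c were chosen after their values were seen. Exon overlaps and transcripts of at least 95% identity over 200 bases came from GENCODE M21 (BLAST 2.17.0), and promoter windows from RefSeq on GRCm38.p6. Where a gene had more than 1 window, the one listed first was used. Of the fixed markers, Hbb-bs was not used and Nkg7 fell below the filter. Chi-square statistics per gene between replicates were 18.7 to 86.1, and no library was merged with another as a duplicate.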

Additional observations from a re-analysis of the deposited data

Results flagged for a closer look

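In 9 of 122 groups of 4 libraries, 1 library lay apart from the other 3 by more than Dixon's critical value for the gap over the range. Chance flags about 1 in 20 such groups where values are normal and groups independent. Many of these genes varied together and some sums share genes, so that rate is only a rough guide here. Among single genes, 4 of 80 groups were affected. Ccnb1 was at 6.75 CPM in adenine 3, with the other adenine libraries at 1.92 to 2.06 CPM. Pcna was at 51.6 CPM in adenine 3, with the others at 25.0 to 28.7 CPM. Foxm1 was at 2.32 CPM in adenine 2, below 3.16 to 3.33 CPM in the others. Cenpa was at 28.9 CPM in control 1, with the other controls at 27.5 to 27.7 CPM, a gap that is small beside its difference between the diets.

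Among list sums, 5 of 42 groups were affected. The macrophage and monocyte sum was 2953 CPM in adenine 3, with the other adenine libraries at 359.8 to 542 CPM, and 762 CPM in control 1, with the other controls at 449.8 to 475 CPM. The erythroid sum was 26052 CPM in control 1, with the other controls at 7009.6 to 8061 CPM. The sum of the other replication genes was 227 CPM in control 1, with the other controls at 179 to 181 CPM. The neutrophil sum was 3.90 CPM in control 2, with the other controls at 7.07 to 7.64 CPM. The cause of these differences was not tested.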

How the results depend on the processing

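Calls among the 40 genes were 0 higher in every alternative and 0 lower in all but the DESeq2 Wald test, which called 1 (Cenpf). Counts over all genes, 8 higher and 0 lower, moved more: 153 and 175 with DESeq2, 18 and 1 with upper-quartile factors, 16 and 16 with the replicate block, 21 and 13 without both control 1 and adenine 3, 1 lower without a filter, 6 lower in robust edgeR and 5 higher in limma-voom. With 1 library left out they ran from 1 to 37 higher and from 0 to 30 lower. The cause was not tested. The deviations of same-numbered libraries of the 2 diets correlated at 0.09, -0.50, -0.16 and 0.30 for replicates 1 to 4. The same-numbered control was the best match for adenine 4 only. The labels name no pairing, and so few correlations cannot decide whether the numbers pair the libraries.

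The median log2 fold change of the 40 genes ran from -0.46 to 0.07 with 1 library left out. Some signs turned: Cdk1 to 0.00875 with upper-quartile factors, 0.22 in limma-voom and 0.0532 with the replicate block; Rrm2 to 0.0203 in limma-voom and 0.0557 without both libraries; Ccnb2 to 0.0178 in limma-voom and 0.00431 without both libraries. With 1 library left out, Cdk1 ran from -0.78 to 0.46, Rrm2 from -0.53 to 0.38, Ccnb2 from -0.77 to 0.31, Prc1 from -0.77 to 0.0125 and Bub1 from -0.0689 to 0.68. Genes with fewer than 50 reads in a library limit what these counts can show.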
